A study of Homo sapiens with 12 samples.

Results

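Histone genes were followed in LNCaP cells, an established human prostate cancer line, in which doxycycline switches on a hairpin RNA that targets PRMT5, a protein arginine methyltransferase that also methylates histones. The genes were chosen by name: 89 genes of the tables have a symbol of the replication-coupled histone clusters HIST1 to HIST4, and 74 of them had a count in at least 1 of 12 libraries. The other 15 had no count and were left out. The 7 replacement histone genes H2AFX, H2AFZ, H2AFY, H2AFV, H3F3A, H3F3B and H1F0 were taken as the contrast, so that 81 of the 34300 genes with a count are described. There were 4 groups of 3 libraries each: irradiated knockdown (doxycycline at 1 µg/mL every 48 h, then 2 Gy, harvest 24 h later), irradiated control (2 Gy, no doxycycline), non-irradiated knockdown (doxycycline only) and non-irradiated control (neither). All 4 groups carry the hairpin construct, and knockdown always came with doxycycline, so that an effect of the drug cannot be told apart from that of the hairpin. Irradiated and non-irradiated libraries were deposited in separate tables, so that irradiation and table cannot be told apart either. Whether separate cultures lie behind the 3 libraries of a group is not in the labels, and p-values then measure only the spread between these libraries, which may be technical.

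Cluster histone genes supply the bulk histones H1, H2A, H2B, H3 and H4 while DNA is copied. Their messenger RNAs are the exception among animal mRNAs in that they normally end a few bases past a stem-loop, bound by the protein SLBP, and carry no poly(A) tail, and they are made mainly in S phase and destroyed when replication stops. A subset of these genes can also be read through past the stem-loop to a poly(A) signal, which gives a polyadenylated form found in differentiating and non-dividing cells. Replacement histone genes are mostly transcribed throughout the cell cycle, and their mRNAs are polyadenylated. The libraries were made from polyadenylated RNA, so that the values below measure polyadenylated histone transcripts and say little of the total.

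The stem-loop was searched in the GENCODE 29 transcripts (GRCh38) on the transcribed strand by the 16-base consensus of histone mRNAs, with any base allowed at its positions 4, 10 and 13. It was found in 38 of 83129 protein-coding transcripts (0.046%), and 31 of the 34 genes that hold it are genes described here. With transcripts of every type, 32 of the cluster genes with a count hold it. In 15 of these the transcript goes on for at least 100 bases past the stem-loop and has AATAAA or ATTAAA within its last 50 bases, a signal that 44.15% of all protein-coding transcripts hold there. The stem-loop in capitals, with its flanks, is shown for the genes whose values are given most fully below.
HIST2H2BE stem-loop: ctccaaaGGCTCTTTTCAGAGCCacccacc
HIST1H2AC stem-loop: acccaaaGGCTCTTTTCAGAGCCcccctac
HIST1H4H stem-loop: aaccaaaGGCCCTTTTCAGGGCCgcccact
HIST1H2BN stem-loop: ccccaaaGGCTCTTTTCAGAGCCactcagt
HIST1H2BE stem-loop: acccaaaGGCTCTTTTCAGAGCCactcacc
HIST3H2BB stem-loop: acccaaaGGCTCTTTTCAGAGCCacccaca
HIST3H2A stem-loop: acataaaGGCTCTTTTCAGAGCCacctact
HIST1H3H stem-loop: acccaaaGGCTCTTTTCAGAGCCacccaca
HIST2H4A stem-loop: tcccaaaGGCCCTTTTTAGGGCCgaccact
H2AFX stem-loop: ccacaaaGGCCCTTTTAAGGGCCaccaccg
Downstream, all of these transcripts but those of HIST1H2BN and HIST3H2BB hold the poly(A) signal near their end, shown in capitals for 5 of them. The HIST1H2BN transcript with the stem-loop, of 1723 bases, and that of HIST3H2BB go on for 377 and 1917 bases past the stem-loop without it. HIST1H2BN has 4 annotated transcripts, and the signal does lie near the end of another of them. In HIST2H2BE the stem-loop lies 1729 bases and the signal 24 bases before the transcript end, and in HIST1H2AC they lie 1128 and 29 bases before it.
HIST2H2BE signal: gctattgttattAATAAAgttaccaattaa
HIST1H2AC signal: ctggcatgaggtAATAAAaggtaatgcaaa
HIST1H4H signal: gaattgtgaaaaAATAAAtgtttaagcca
HIST1H3H signal: tttgtatgactaAATAAAatctgtataatc
H2AFX signal: tggactaattttATTAAAggattgtttttt
H2AFX, the gene of the histone H2A.X that is phosphorylated at DNA breaks, is the replacement gene among the 7 that holds both elements.

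Promoters are shown for HIST2H2BE, the cluster gene with the most counts, and for HIST1H2AC, which shares its upstream region with HIST1H2BC on the other strand. Each run is the 250 bases before the RefSeq start (GRCh38.p14), 5′ to 3′ on the gene's strand. Capitals mark 3 motifs found on either strand: the octamer ATTTGCAT, which POU-domain factors such as POU2F1 bind, the TATA box motif TATAAA of core promoters, and the CCAAT box, searched as these letters.
HIST1H2AC promoter, chr6:26123922-26124171, plus strand: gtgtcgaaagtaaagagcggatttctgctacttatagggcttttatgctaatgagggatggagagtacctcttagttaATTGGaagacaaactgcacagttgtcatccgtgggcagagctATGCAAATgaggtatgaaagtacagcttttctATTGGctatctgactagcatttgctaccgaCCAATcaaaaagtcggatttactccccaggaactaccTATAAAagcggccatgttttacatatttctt
HIST2H2BE promoter, chr1:149886683-149886932, minus strand: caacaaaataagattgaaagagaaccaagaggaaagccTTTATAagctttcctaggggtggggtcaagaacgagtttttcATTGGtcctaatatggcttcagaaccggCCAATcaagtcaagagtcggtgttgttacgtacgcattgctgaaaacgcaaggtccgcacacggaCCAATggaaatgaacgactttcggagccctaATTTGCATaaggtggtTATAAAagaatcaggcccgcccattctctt
The octamer starts 130 bases before the HIST1H2AC start, on the opposite strand, and 46 bases before the HIST2H2BE start, on the same strand. It was present in the windows of 22 of 29 cluster H2A and H2B genes (75.86%), 0 of 24 cluster H1, H3 and H4 genes and 1 of 6 replacement genes, against 1.77% of all 35116 start windows. CCAAT was in 29 of the 29 H2A and H2B windows and in 34.61% of all windows, and TATAAA in 20 of the 29 and in 11.53% of all windows. These matches describe letters and are not shown to be bound.

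Total counts were between 14801939 and 33158865 per library, so that 3 counts, the most that a gene with none can be said to have, were worth 0.0905 to 0.203 CPM, the TMM-scaled counts of a gene relative to its library's total. The limit of 3 counts covers counting error only. PRMT5 had 24.9 to 31.3 CPM in irradiated knockdown against 186.9 to 230.4 CPM in irradiated control libraries, and 26.6 to 32.85 CPM in non-irradiated knockdown against 186.4 to 197.7 CPM in non-irradiated controls. The line's own luminal markers were high, with KLK3 at a mean of 2148 to 3329 CPM per group, while COL1A2 and CD3E had no count and KRT5, KRT14, CHGA and PTPRC stayed under 9 CPM in every library. Of the markers of other cell types, 3 were higher: LCP1, a leukocyte marker, averaged 148.6 CPM in irradiated knockdown, 140.4 CPM in irradiated controls, 91.6 CPM in non-irradiated knockdown and 62.8 CPM in non-irradiated controls, ENO2, a neuroendocrine marker, averaged 36.2 to 78.5 CPM per group, and COL1A1, a fibroblast marker, 15.4 to 17.2 CPM. Their part in the results was not tested. The first replicates of the irradiated table stood apart from the others: the mean log2 CPM of 30 DNA replication genes was 5.19 in irradiated knockdown 1 and 5.84 in irradiated control 1, against 3.93 to 4.06 in the other 4 irradiated libraries. Irradiated knockdown 3 held 210 CPM of short non-polyadenylated RNAs, against 13.8 to 70.4 CPM in the 11 other libraries. The part of either in the results was not tested, and counts without the first irradiated replicates are given below.

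Polyadenylated transcripts of the cluster genes came from few genes. HIST2H2BE, which encodes an H2B, gave 25.55% of the summed CPM of the 74 genes over all libraries, the top 3 genes gave 50.8% and the top 10 gave 84.1%. Of the 74 genes, 17 averaged at least 10 CPM and 43 averaged under 1 CPM, with a median of 0.610 CPM, whereas the 7 replacement genes ran from 23.3 to 483 CPM with a median of 258 CPM. By class, 23 H2B genes had a median of 6.33 CPM, 14 H4 genes 0.638 CPM, 6 H1 genes 0.425 CPM, 18 H2A genes 0.175 CPM and 13 H3 genes 0.0287 CPM. The 74 include 8 with pseudogene names, and HIST2H2BA, HIST2H2BB, HIST2H2BD and HIST3H2BA have no annotated coding part. These medians are thus not those of coding genes alone. All cluster genes together took 0.103% to 0.143% of the counts of a library. In bulk RNA, fewer cells of a kind and less RNA per cell cannot be told apart.

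The 15 cluster genes with a stem-loop and a poly(A) signal past it had a median of 12.7 CPM and included HIST2H2BE, HIST1H2AC and HIST1H4H. The 17 other stem-loop genes, which lack the signal or the run before it, had a median of 6.45 CPM, and the 26 whose annotation covers the coding part only had a median of 0.159 CPM. HIST1H1C and HIST1H2BK belonged to the last kind, so that their UTRs were not counted, and still averaged 160.3 and 109 CPM. The part of the annotation in these levels was not tested.

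**Figure D1:**
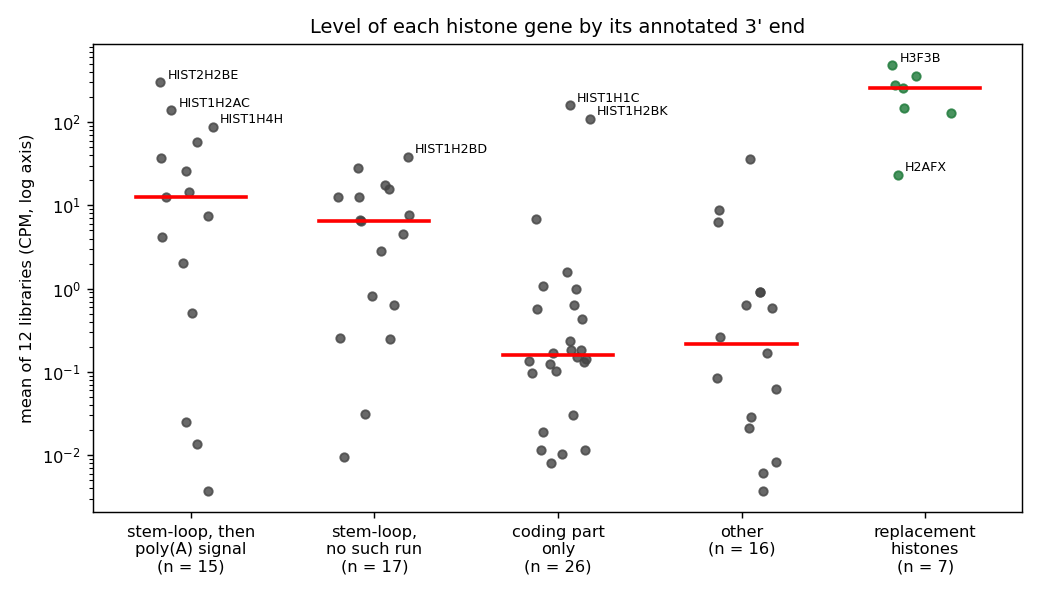
Mean CPM over 12 libraries (log axis) of each of the 81 histone genes, in columns by annotated 3′ end; each point is a gene and each red line the median of its column. The medians are 12.7 CPM for cluster genes with a stem-loop and a downstream signal, 6.45 CPM for the other stem-loop genes (no such run), 0.159 CPM for those annotated by their coding part and 258 CPM for the replacement histones.

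Levels per kb used the deposited gene length, which joins the exons of all transcripts of a gene. Genes with several transcripts may thus be placed too low: the length of H3F3B was 6134 bases, while its longest transcript has 2787. Highest was the H2B gene HIST1H2BK at a level of 287 CPM per kb (chr6:27146418-27146798, minus strand), although 74.1% of its 50-base words occur in other genes. The linker histone H1 gene HIST1H1C followed at 249.8 CPM per kb, with no shared word. HIST2H2BE was at 138 CPM per kb (chr1:149884459-149886652, minus strand), above every replacement gene by this length only and as a mean of 12 libraries. H2AFZ was at 119.9 CPM per kb with an SD of 35.4. In non-irradiated knockdown HIST2H2BE was at 110.6 CPM per kb, below H2AFZ at 146.6 and H1F0 at 140.6. In the other groups it was above both, with 151.4 against 96.3 and 127.6 CPM per kb in non-irradiated controls. No order of these genes is thus read from the means. Over the 12 libraries of all groups the levels of HIST1H2BK, HIST1H1C and HIST2H2BE varied with SDs of 108, 76.5 and 20.8 CPM per kb. These SDs do not measure the spread of a difference between 2 genes within libraries. HIST1H2BK and HIST1H1C were at 334.9 and 235.8 CPM per kb in irradiated knockdown and 351.3 and 312.5 in irradiated controls. They were at 265.8 and 234.1 in non-irradiated knockdown and 196.6 and 216.6 in non-irradiated controls, so that their order changed between groups. Next among the cluster genes came the H2A gene HIST1H2AC at 83.45, the H3 gene HIST1H3H at 46.7, the H2B gene HIST1H2BD at 44.2 and the H4 gene HIST1H4H at 40.6 CPM per kb. The H2A genes HIST3H2A and HIST1H2AI and the H2B genes HIST1H2BC and HIST1H2BG lay between 18.3 and 28.96 CPM per kb. The H2A gene HIST1H2AK was at 17.65 CPM per kb, but all of its exon positions lie on the opposite strand of HIST1H2BN, so that its reads cannot be told apart from those of HIST1H2BN without strand. In HIST1H2AI, 62.3% of the words occur in other genes.

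By the same length, replacement histones were led by H2AFZ, the gene of H2A.Z, at 119.9 CPM per kb and H1F0, the linker histone of quiescent and differentiated cells, at 110.1 CPM per kb. H3F3B and H3F3A, which encode the same histone H3.3, were at 78.8 and 47.3 CPM per kb. H2AFV, a second H2A.Z gene, and H2AFY, the gene of macroH2A1, were at 26.8 and 20.1 CPM per kb, and H2AFX was lowest at 14.4 CPM per kb. In CPM, H2AFX ran from 36.7, 18.35 and 17.9 in irradiated knockdown libraries and 58.55, 18.7 and 15.6 in irradiated controls to 19.96, 29.7 and 25.3 in non-irradiated knockdown and 13.4, 13.3 and 12.02 in non-irradiated controls. The first replicates were the highest of both irradiated groups.

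Without irradiation, 5 of the 44 cluster histone genes that could be tested fell with PRMT5 knockdown and none rose: HIST1H2BN, HIST1H2BE and HIST3H2BB, which encode H2B, HIST1H4H, which encodes H4, and HIST1H2AC, which encodes H2A. They stood at 49.6% to 56.85% of the control mean. A gene was called at an adjusted p under 0.05 in edgeR's quasi-likelihood test with Benjamini-Hochberg adjustment over all 17191 genes tested. Over all genes 265 were called (1.54%), 207 lower (1.2%) and 58 higher (0.337%). At an unadjusted p under 0.05 in the same edgeR test, 11 cluster genes were lower and 1 was higher, against 9.82% and 7.62% of all genes, and DESeq2 called no cluster gene higher, where it called 2.46% of all genes higher. The 44 genes had a median log2 fold change of -0.32, against 0.0045 over all genes, and 34 of the 44 had negative values, against 49.4% of all genes.

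HIST1H2BN (chr6:27837760-27865798, plus strand) had 9.70, 11.3 and 11.15 CPM in the non-irradiated knockdown libraries, against 20.8, 21.9 and 22.1 CPM in the controls. The groups were well apart, and the fall was by 1.01 on the log2 scale (SE 0.12, adjusted p = 0.00292). It remained called in each of 12 fits that left out 1 library and in each of 8 other alternatives. Other genes, mainly HIST1H2AK on the opposite strand, cover 7.25% of its exon positions.

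HIST1H4H (chr6:26277609-26285638, minus strand) had 77.6, 66.99 and 63.3 CPM in non-irradiated knockdown, against 107, 135 and 129 CPM in controls (log2 fold change -0.84, SE 0.13, adjusted p = 0.0113). No sequence of it is shared with other genes at 50 bases. HIST1H2AC (chr6:26124145-26139116, plus strand) had 112, 113 and 109.5 CPM in non-irradiated knockdown, against 151.5, 219 and 219 CPM in controls (log2 fold change -0.82, SE 0.15, adjusted p = 0.0262). In both genes every knockdown library lay below every control, and control 1 was the lowest control.

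HIST3H2BB (chr1:228458107-228460470, plus strand) had 5.40, 5.51 and 5.365 CPM in non-irradiated knockdown, against 9.37, 9.61 and 11.5 CPM in controls (log2 fold change -0.91, SE 0.17, adjusted p = 0.0239). HIST1H2BE (chr6:26172059-26184655, plus strand) had 5.73, 4.32 and 5.50 CPM in non-irradiated knockdown, against 8.11, 9.65 and 12.1 CPM in controls (log2 fold change -0.94, SE 0.20, adjusted p = 0.0411). The groups did not overlap in either gene. In HIST1H2BE, 28.2% of the exon positions lie in another gene and 30.5% of the words occur elsewhere, so that its value is uncertain.

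HIST2H2BE, the leading cluster gene, had 246.5, 238 and 244 CPM in non-irradiated knockdown, against 274.5, 365 and 357.5 CPM in controls, again without overlap. Its value did not pass the test (log2 fold change -0.45, SE 0.13, adjusted p = 0.0917), and with the replicate number as a block it did (adjusted p = 0.00354). HIST1H2BC, which shares the printed upstream region with HIST1H2AC, had 10.75, 11.15 and 14.5 CPM in non-irradiated knockdown against 17.03, 17.8 and 20.1 CPM in controls (log2 fold change -0.59, SE 0.15, adjusted p = 0.0686, and 0.00147 with the block). Both genes of that pair were thus lower in each knockdown library than in any control. In the pair that flanks 234 bases on chromosome 1, HIST3H2A had 17.9 ± 1.865 CPM in non-irradiated knockdown and 23.2 ± 1.89 CPM in controls (SD, n = 3 each), a log2 fold change of -0.37 beside -0.91 for HIST3H2BB.

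**Figure D2:**
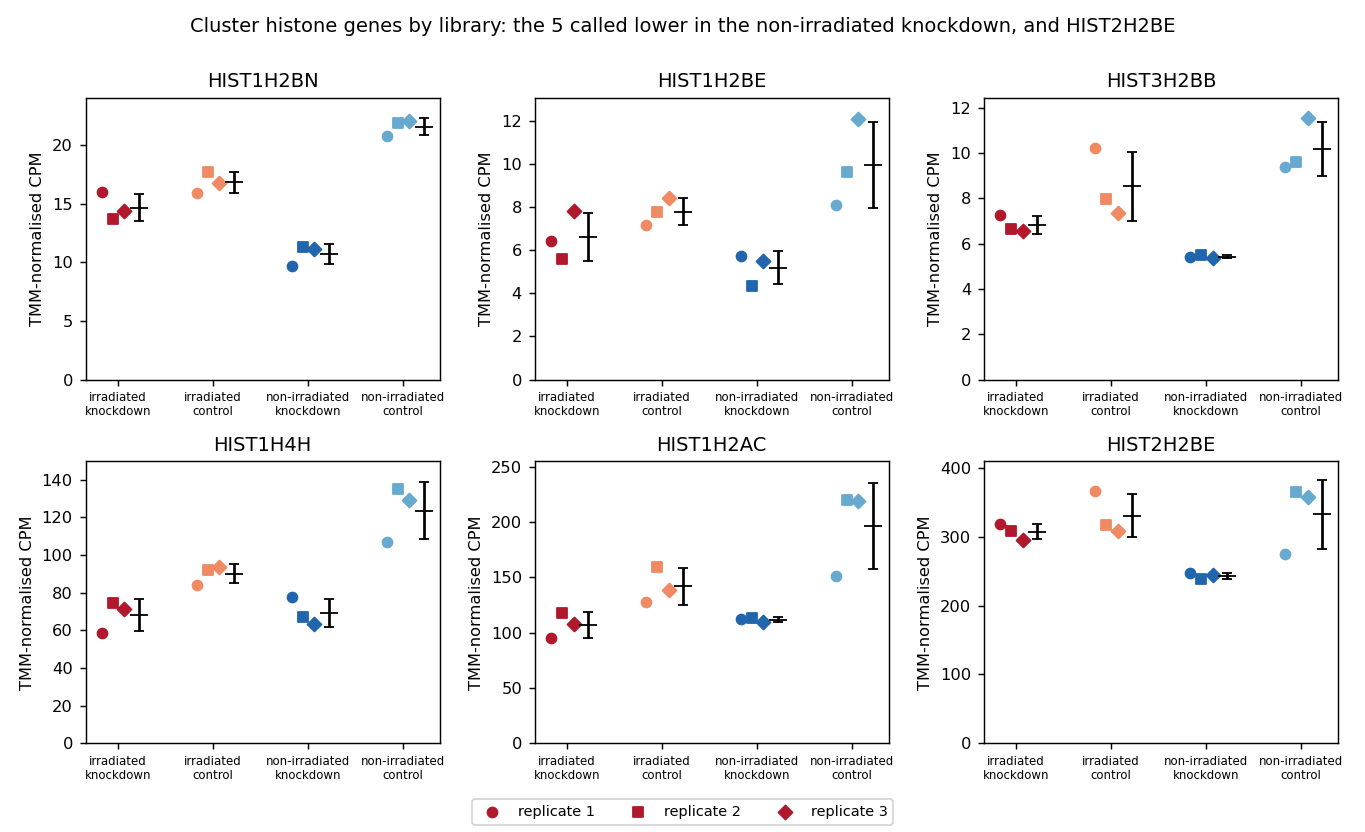
TMM-normalised CPM in each library of the 5 cluster genes called lower in the non-irradiated knockdown and of HIST2H2BE; markers show replicates 1 to 3 and the black bars the mean ± SD of 3 libraries. In all 6 panels the 3 non-irradiated knockdown libraries lie below the 3 non-irradiated controls, and for HIST1H2BN they are 9.70, 11.3 and 11.15 CPM in non-irradiated knockdown against 20.8, 21.9 and 22.1 CPM in non-irradiated controls.

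The 2 most positive values and the most negative one in the cluster list were not called. The H2A gene HIST1H2AE had 6.065, 6.17 and 8.10 CPM in non-irradiated knockdown against 5.15, 4.47 and 2.92 CPM in controls (log2 fold change 0.70, SE 0.25, adjusted p = 0.167), and the H4 gene HIST1H4I had 3.14, 4.25 and 2.98 CPM in non-irradiated knockdown against 2.33, 2.70 and 2.11 CPM in controls (log2 fold change 0.54, SE 0.41, adjusted p = 0.538). Both were higher in every knockdown library. HIST2H4B had the most negative value, -1.46, at 0.441, 0.662 and 0.1385 CPM in non-irradiated knockdown against 1.57, 0.885 and 1.005 CPM in controls (adjusted p = 0.149), and 97.2% of its words occur elsewhere, mainly in the near-identical HIST2H4A. Libraries of the 2 groups did not overlap for 16 of the 44 genes (36.4%), 13 of them lower, against 31.1% of all genes.

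By annotated 3′ end, the 12 tested genes with a stem-loop and a downstream poly(A) signal all had negative values, with a median of -0.44 and 3 called. The median was -0.19 in the 15 tested other stem-loop genes (10 negative, 2 called) and -0.17 in the 10 annotated by their coding part (7 negative, none called). Of all genes 49.4% had negative values and 1.54% were called (1.2% lower). The 12 are not separate readings: in HIST2H4A, HIST2H4B and HIST2H2BD, 97.5%, 97.2% and 70.95% of the words occur in other genes. The genes annotated by their coding part include HIST1H1C, at 150.3 ± 14.5 CPM in non-irradiated knockdown and 139 ± 19.3 CPM in controls (log2 fold change 0.11, adjusted p = 0.864), and HIST1H2BK, at 101 ± 11.4 CPM in non-irradiated knockdown and 74.9 ± 8.21 CPM in controls (log2 fold change 0.44, adjusted p = 0.474). By histone, medians were -0.42 in 18 H2B genes and 10 H4 genes, -0.28 in 8 H2A genes, -0.11 in 5 H3 genes and 0.11 in 3 H1 genes. The 11 tested genes of the HIST2 cluster on chromosome 1 all had negative values, with a median of -0.45. Most of them share much of their sequence with other genes of the cluster, so that the 11 are not separate readings.

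All 7 replacement histones had positive log2 fold changes in the non-irradiated knockdown, with a median of 0.25, where 50.6% of all genes had positive values. None passed edgeR's test (1 higher at an unadjusted p under 0.05, against 7.62% of all genes). DESeq2 called none, where it called 2.46% of all genes higher. H2AFX had 24.96 ± 4.86 CPM in non-irradiated knockdown and 12.9 ± 0.773 CPM in controls (log2 fold change 0.95, SE 0.44, adjusted p = 0.294), H2AFZ 338 ± 63.96 CPM in non-irradiated knockdown and 222 ± 33.95 CPM in controls (log2 fold change 0.61, SE 0.29, adjusted p = 0.304), and H2AFY 388 ± 49.1 CPM in non-irradiated knockdown and 289.9 ± 28.3 CPM in controls (log2 fold change 0.42, SE 0.14, adjusted p = 0.158). In these 3 genes each knockdown library was higher than each control, as for 15.4% of all genes. H3F3A, H3F3B, H1F0 and H2AFV had log2 fold changes of 0.25, 0.21, 0.14 and 0.14, with overlapping groups.

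Same-numbered libraries within a table deviated together, and with the number as a block more was called: 15 of 44 cluster genes, 13 lower and 2 higher, where 27.8% of all genes were called (14.1% lower, 13.7% higher). The 2 higher were HIST1H2BK (0.44, adjusted p = 0.0489) and HIST1H4I (0.54, adjusted p = 0.0308). Of the replacement genes 5 of 7 were then called, all higher: H2AFX (0.95, adjusted p = 0.00711), H2AFZ (0.60, 0.000504), H2AFY (0.42, 0.00199), H3F3A (0.25, 0.012) and H3F3B (0.21, 0.0316). Without the block, leaving out non-irradiated knockdown 2 or 3 or non-irradiated control 2 or 3 left HIST1H2BN as the 1 cluster gene called. Without both first irradiated replicates, 12 cluster genes were called, 10 lower and 2 higher, among them HIST1H2AE (0.70, adjusted p = 0.0421), and 3 replacement genes, where 14.7% of all genes were called (8.14% lower, 6.54% higher).

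In the non-irradiated knockdown, values of DNA replication genes had the opposite sign to those of most cluster genes. All 30 of a replication list had positive log2 fold changes in the non-irradiated knockdown, with a median of 0.84, none called by edgeR without the block (9 at an unadjusted p under 0.05, where 7.62% of all genes were higher) and 12 with it (13.7% of all genes higher). MCM2, a subunit of the replicative helicase, had 52.3, 116 and 98.3 CPM in non-irradiated knockdown against 34.45, 32.5 and 30.55 CPM in controls (log2 fold change 1.45, SE 0.51, adjusted p = 0.166). Knockdown 1 was nearest to the controls. In the irradiated knockdown the signs were not opposite: 29 of the 30 replication genes had negative values, with a median of -0.33 and none called. There 30 of 44 cluster genes and 50.9% of all genes were negative. Summed over the 74 cluster genes, the libraries held 1018, 1021 and 1046 CPM in non-irradiated knockdown, against 1147, 1372 and 1351 CPM in controls, and the sum of the 7 replacement genes was 1694, 2013 and 1895 CPM in non-irradiated knockdown, against 1377, 1607 and 1533 CPM in controls. The cluster sum was lower in every knockdown library and the replacement sum was higher in every one. The part of replication in these differences was not tested.

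**Figure D3:**
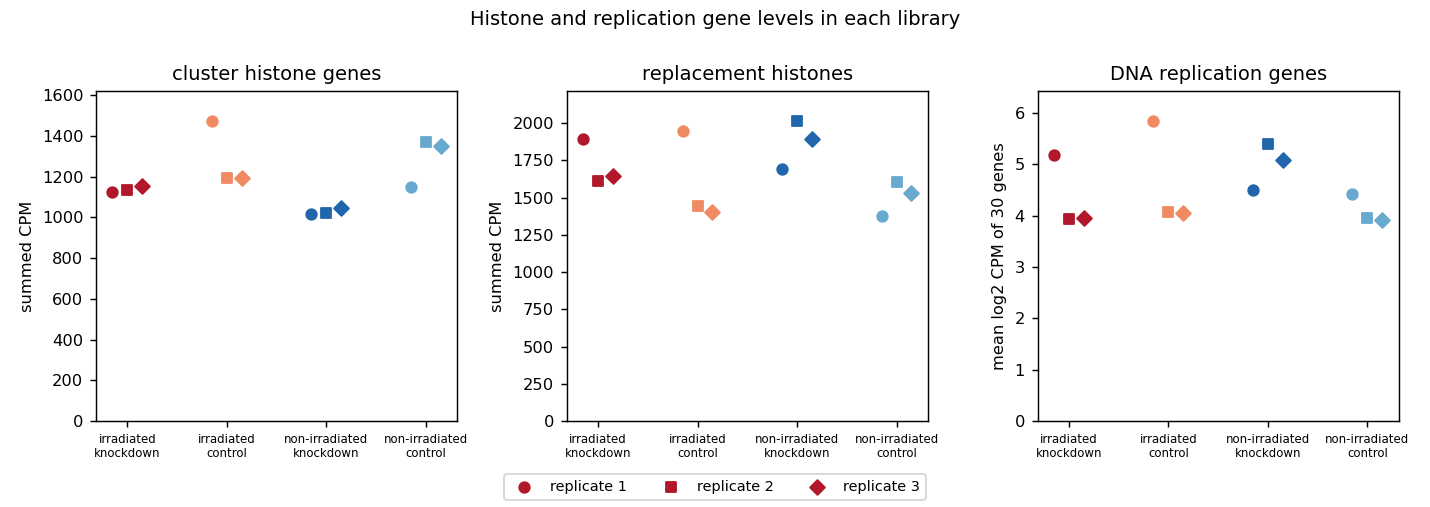
Summed CPM of the 74 cluster genes (left), summed CPM of the 7 replacement genes (middle) and mean log2 CPM of 30 DNA replication genes (right) in each of 12 libraries, by group; markers show replicates 1 to 3. The non-irradiated knockdown libraries have the lowest cluster sums (1018 to 1046 CPM), and irradiated control 1 has the highest cluster sum (1472 CPM) and the highest replication mean (5.84).

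With irradiation, knockdown changed no cluster gene and no replacement gene past the test, where 51 of all genes were called by edgeR (0.297%; 1 higher, 0.00582%, and 50 lower, 0.291%). At an unadjusted p under 0.05, 1 cluster gene was higher and 4 were lower and no replacement gene passed, against 3.48% and 5.8% of all genes (9.28% in both directions). DESeq2 called no histone gene, where it called 1.88% of all genes. The median over 44 cluster genes was -0.09, against -0.0052 over all genes, and 30 of 44 had negative values (50.9% of all genes). Libraries of the groups did not overlap for 5 cluster genes, all lower, against 7.72% of all genes lower and 5.82% higher. HIST1H2AC had 94.9, 118 and 108 CPM in irradiated knockdown, against 127, 159 and 138 CPM in irradiated controls (log2 fold change -0.41, SE 0.15, adjusted p = 0.408). HIST1H4H had 58.3, 74.5 and 71.1 CPM in irradiated knockdown, against 84.2, 92.1 and 93.6 CPM in irradiated controls (log2 fold change -0.40, SE 0.13, adjusted p = 0.325). In both genes all knockdown libraries were below all controls, and both were called with the replicate block, where 6.05% of all genes were called lower (adjusted p = 0.022 and 0.0314).

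All 5 cluster genes called without irradiation, HIST1H2AC and HIST1H4H included, had smaller values after it. They were chosen by their values without it, so that smaller values elsewhere show no difference by themselves, and edgeR called no interaction. HIST1H2BN had 15.98, 13.7 and 14.4 CPM in irradiated knockdown, against 15.96, 17.75 and 16.8 CPM in irradiated controls (log2 fold change -0.20, SE 0.12, adjusted p = 0.662), with irradiated knockdown 1 level with irradiated control 1. HIST3H2BB and HIST1H2BE had log2 fold changes of -0.32 and -0.24, and HIST2H2BE one of -0.11. The most negative values were those of HIST1H2BO, an H2B gene at 0.883, 0.563 and 0.494 CPM in irradiated knockdown against 0.954, 1.52 and 1.555 CPM in irradiated controls (log2 fold change -1.05, SE 0.33, adjusted p = 0.317; -1.53 and called without both first irradiated replicates), and of HIST2H4B (-0.77, and -1.41 without those replicates). The most positive were those of the H1 pseudogene HIST1H1PS1 (0.51, 0.721 ± 0.232 CPM in irradiated knockdown and 0.4965 ± 0.135 CPM in irradiated controls), at 0.23 without irradiated knockdown 3, and the H3 gene HIST2H3D (0.34, 1.52 ± 0.746 CPM in irradiated knockdown and 1.20 ± 0.462 CPM in irradiated controls), whose value was -0.12 without irradiated knockdown 2. Replacement genes ran from -0.35 (H2AFX) to 0.21 (H3F3B), with a median of -0.02 and overlapping groups in all 7.

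**Figure D4:**
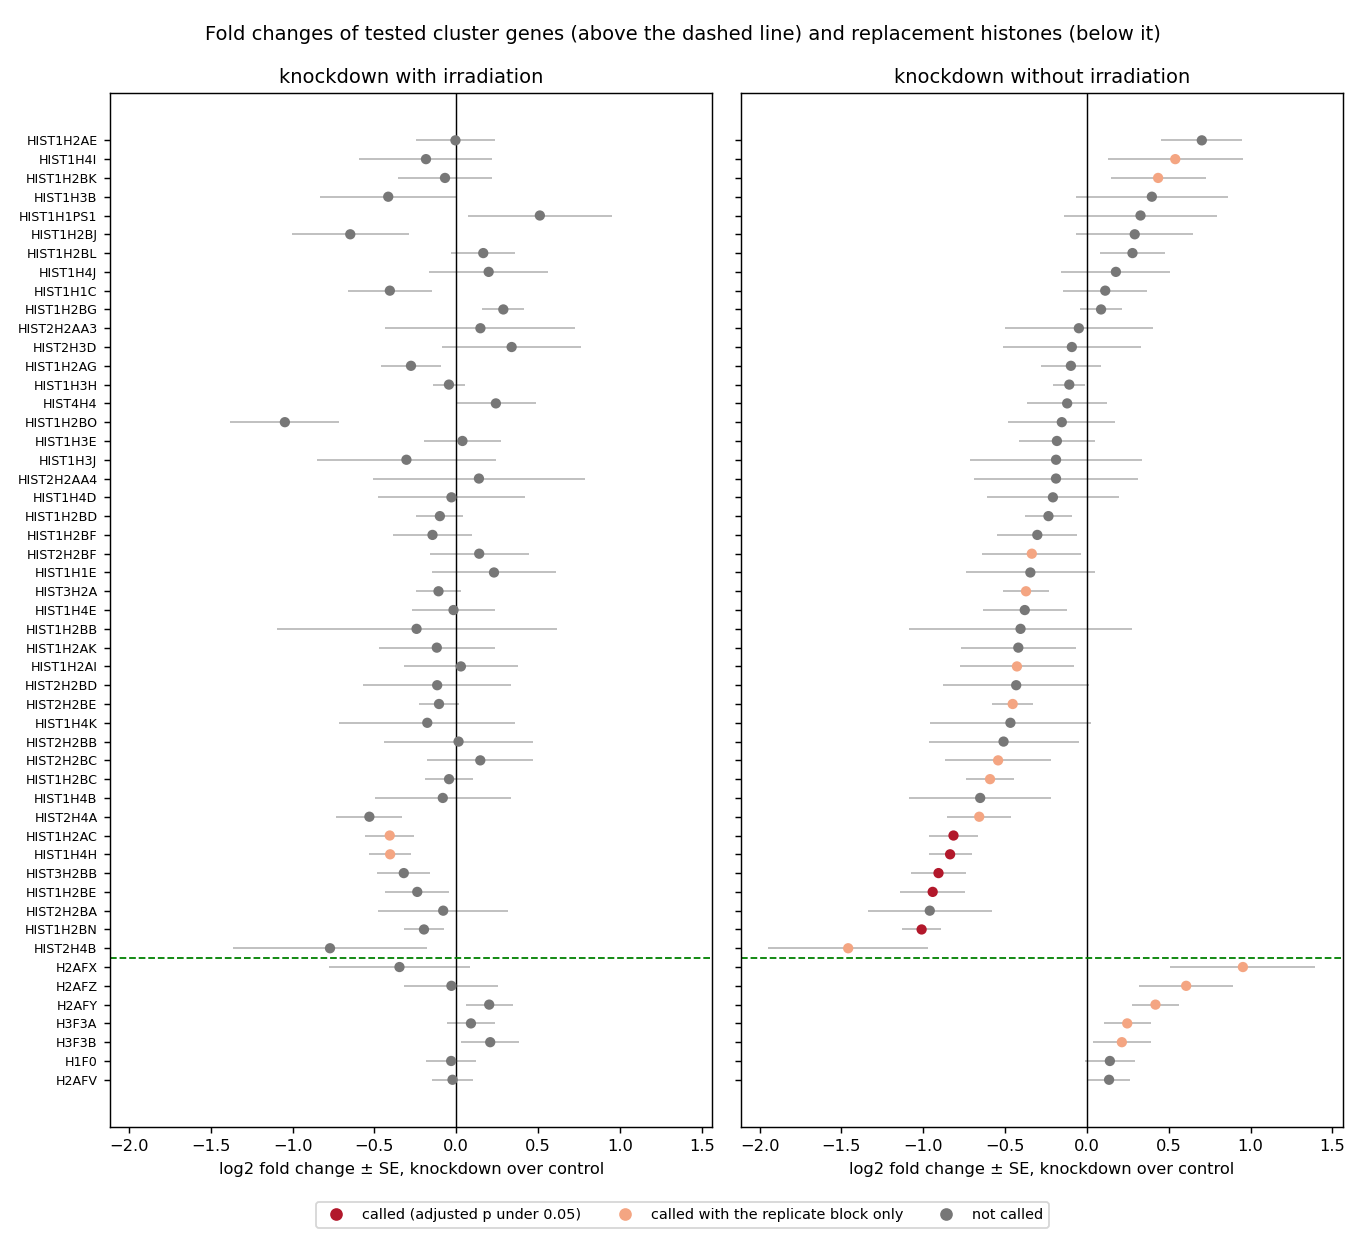
Log2 fold change of knockdown over control ± SE for 44 tested cluster genes (above the dashed line) and 7 replacement genes (below it), with irradiation on the left and without it on the right, in the order of the values without irradiation. Without irradiation 5 cluster genes are called lower (dark red) and all 7 replacement genes lie right of 0; with irradiation no gene is called and 2 are called with the replicate block.

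The 2 knockdown effects were set against each other by an interaction term, which used all 12 libraries. No gene of 17191 was called (350 at an unadjusted p under 0.05, 2.04%), and so no histone gene. Of the 44 cluster genes 34 had positive values, the median was 0.28, and 5 had an unadjusted p under 0.05, all positive. These were HIST1H2BN (0.81), HIST1H2BE (0.70), HIST3H2BB (0.59), HIST1H2BC (0.55) and HIST1H4H (0.43), each with an adjusted p of 1.0 in edgeR. DESeq2 called 1 cluster gene, HIST1H2BN (0.81, adjusted p = 0.0274), the 1 gene it called of all tested (0.00583%). The largest positive value was that of HIST2H2BA (0.88), at 0.28 to 1.38 CPM, and the most negative were those of HIST1H2BJ (-0.94) and HIST1H2BO (-0.89). With 1 library left out, HIST2H2BA was at 0.55 without non-irradiated knockdown 3, and HIST1H2BJ was at -0.47 without irradiated control 1. All 7 replacement genes had negative values, with a median of -0.17. No histone gene's difference in response to knockdown thus passed edgeR's test.

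In controls, irradiated libraries had less of 1 cluster gene, HIST2H4A, and more of none, where 389 of all genes were called (2.26%), 151 lower (0.878%) and 238 higher (1.38%). At an unadjusted p under 0.05 edgeR gave 14 cluster genes lower and 4 higher, against 9.52% and 12.2% of all genes, and DESeq2 called 9 lower and 3 higher, where it called 3.34% of all genes lower and 4.69% higher. HIST2H4A, an H4 gene (chr1:149832659-149839767, plus strand), had 4.05, 2.83 and 2.995 CPM in irradiated controls, against 6.85, 6.53 and 7.09 CPM in non-irradiated controls (log2 fold change -1.05, SE 0.20, adjusted p = 0.0256). The groups were apart, but 97.5% of its words occur in other genes, mainly HIST2H4B. Without irradiated control 2 or 3, or non-irradiated control 2 or 3, it was not called. With libraries scaled by their size alone, 27.7% of all calls were higher, against 61.2% as reported.

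All 11 tested genes of the HIST2 cluster had negative values, with a median of -1.05, while the 30 tested HIST1 genes had a median of -0.12 and 14 positive values. The 11 are not separate readings. In HIST2H2AA3, HIST2H2AA4, HIST2H2BA, HIST2H2BB, HIST2H2BD, HIST2H3D, HIST2H4A and HIST2H4B, 70.95% to 100% of the words occur in other genes, mostly of the same cluster. HIST2H4B had 0.229, 0.342 and 0.303 CPM in irradiated controls against 1.57, 0.885 and 1.005 CPM in non-irradiated controls (log2 fold change -1.94, SE 0.50, adjusted p = 0.0652). The H2A genes HIST2H2AA3 and HIST2H2AA4 had 72 and 73 counts in all 12 libraries together and are near-identical, and levels of 0.08 to 0.16 CPM in irradiated controls were at or near a count of 3, so that no fold is read. HIST2H2BE, of the same cluster, had 366, 316.5 and 308 CPM in irradiated controls, against 274.5, 365 and 357.5 CPM in non-irradiated controls (log2 fold change -0.01), with overlapping groups. Over all 44 genes the median was -0.32, 15 values were positive (49.5% of all genes), and groups did not overlap for 20 (45.5%, with 5 higher and 15 lower), against 27.6% of all genes. The 23 tested genes with no shared exon position and few shared words had a median of -0.009, with 11 positive and 12 negative values. Their groups did not overlap for 34.8% (4 higher, 4 lower), so that the lower median is not seen in them.

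The largest positive values in controls were those of the H3 gene HIST1H3B (0.94, 0.775 ± 0.249 CPM in irradiated and 0.403 ± 0.0569 CPM in non-irradiated controls) and HIST1H2BK (0.84, adjusted p = 0.13). HIST1H2BK had 214, 88.01 and 99.1 CPM in irradiated controls, against 68.3, 84.1 and 72.25 CPM in non-irradiated controls, with replicate 1 far above the others, and its log2 fold change was 0.31 without both first irradiated replicates. HIST1H1C had 309, 135.5 and 157.5 CPM in irradiated controls, against 139, 158 and 119.7 CPM in non-irradiated controls, again highest in replicate 1. No replacement gene was called by edgeR (1 higher and 2 lower at an unadjusted p under 0.05), while DESeq2 called 2, where it called 8.02% of all genes. H1F0 had 184, 217 and 212 CPM in irradiated controls, against 270.0, 338.5 and 289 CPM in non-irradiated controls (log2 fold change -0.55, SE 0.15, adjusted p = 0.0794), without overlap.

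In knockdown libraries, irradiation went with more HIST3H2A, HIST1H2BC and HIST1H3H and with less HIST2H4A, H1F0 and H3F3A, where 615 of all genes were called by edgeR (3.58%), 374 higher (2.18%) and 241 lower (1.4%). At an unadjusted p under 0.05, 5 cluster genes were higher and 6 lower, against 11.3% and 9.67% of all genes (20.9% in both directions). HIST3H2A (chr1:228456979-228457873, minus strand) had 30.4, 32.98 and 26.96 CPM in irradiated knockdown, against 17.04, 16.6 and 20.04 CPM in non-irradiated knockdown (log2 fold change 0.75, SE 0.14, adjusted p = 0.0187). HIST1H2BC (chr6:26114873-26123926, minus strand) had 19.4, 18.9 and 19.6 CPM in irradiated knockdown, against 10.75, 11.15 and 14.5 CPM in non-irradiated knockdown (log2 fold change 0.67, SE 0.15, adjusted p = 0.0347). HIST1H3H (chr6:27810064-27811300, plus strand) had 59.99, 69.5 and 63.7 CPM in irradiated knockdown, against 50.8, 47.3 and 46.6 CPM in non-irradiated knockdown (log2 fold change 0.42, SE 0.10, adjusted p = 0.0407). In all 3 genes every irradiated library was above every non-irradiated one. In controls HIST3H2A and HIST1H3H were also higher with irradiation and without overlap, though not called (log2 fold changes 0.49 and 0.35, edgeR adjusted p = 0.0854 and 0.0778). HIST1H2BC was at 0.12 there, with overlapping groups.

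HIST2H4A had 2.65, 2.36 and 1.80 CPM in irradiated knockdown, against 4.47, 4.18 and 4.33 CPM in non-irradiated knockdown (log2 fold change -0.93, SE 0.20, adjusted p = 0.0337). H1F0 had 155, 218 and 226 CPM in irradiated knockdown, against 333.5, 352 and 304 CPM in non-irradiated knockdown (log2 fold change -0.72, SE 0.15, adjusted p = 0.0325). H3F3A had 138, 115.5 and 121 CPM in irradiated knockdown, against 166, 201 and 207 CPM in non-irradiated knockdown (log2 fold change -0.62, SE 0.14, adjusted p = 0.0412). None of these groups overlapped. In controls H3F3A was also lower with irradiation and without overlap, though not called (log2 fold change -0.46, edgeR adjusted p = 0.106), and HIST2H4A and H1F0 were lower as given above. H3F3B, which encodes the same protein as H3F3A, had 659, 530.5 and 530.0 CPM in irradiated knockdown, against 381.5, 491 and 519 CPM in non-irradiated knockdown (log2 fold change 0.31, adjusted p = 0.349), so that the 2 genes had values of opposite sign.

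The 44 cluster genes were evenly divided, 22 positive and 22 negative (50.4% of all genes negative) with a median of -0.01, and 14 did not overlap (31.8%; 6 higher, 8 lower), against 29.8% of all genes. With libraries scaled by their size alone, which moved the median of all genes by -0.15 in both irradiation comparisons, HIST1H2BC and HIST1H3H were no longer called, and 26.5% of all calls were higher, against 60.8% as reported. Leaving out 1 library, the cluster count lay between 0 and 5 and the replacement count between 0 and 2; both were 0 without irradiated knockdown 2 or non-irradiated knockdown 2. HIST3H2A kept its call in 9 of 12 such fits, HIST1H2BC in 4, HIST1H3H in 1, HIST2H4A in 5, H1F0 in 6 and H3F3A in 3.

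**Figure D5:**
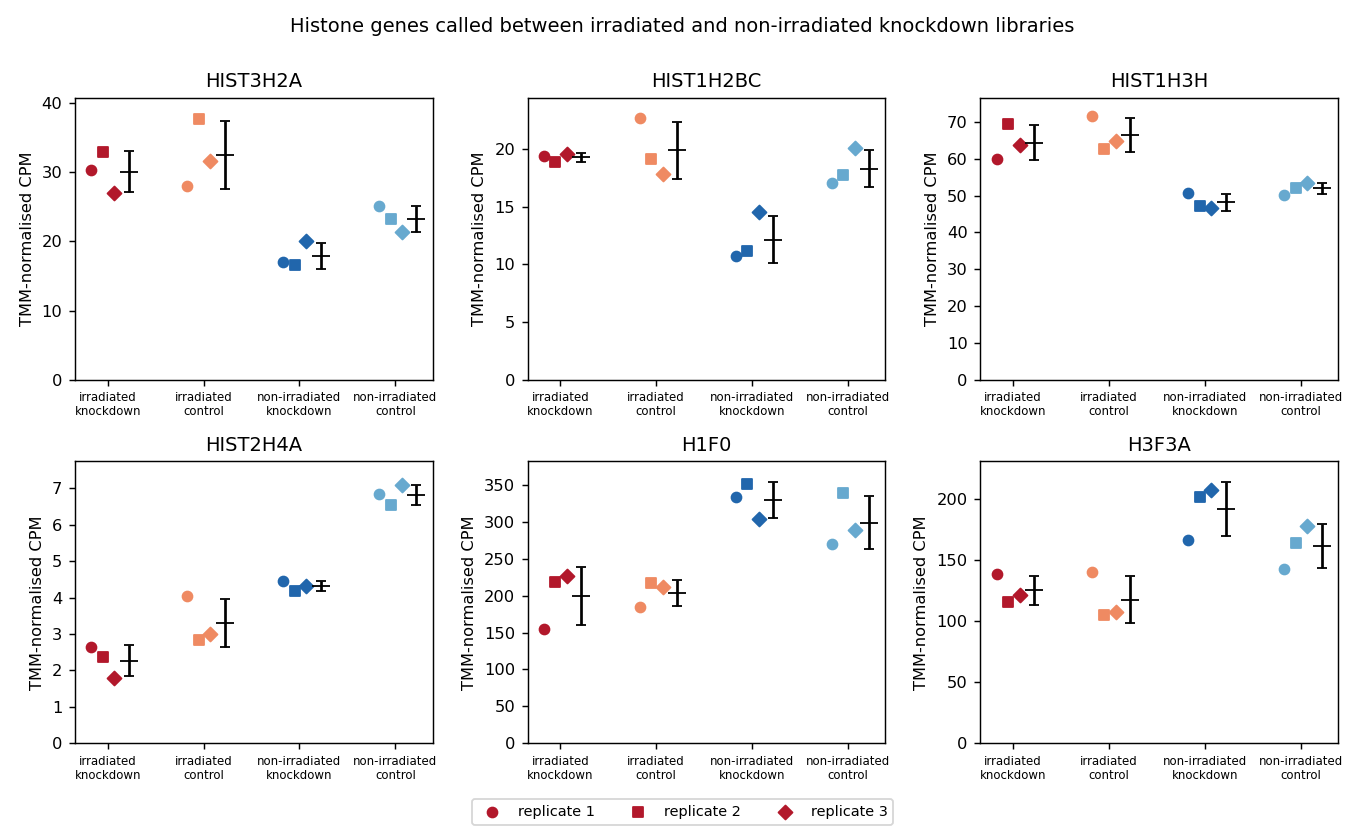
TMM-normalised CPM in each library of the 6 histone genes called between irradiated and non-irradiated knockdown; markers show replicates 1 to 3 and the black bars the mean ± SD of 3 libraries. HIST3H2A, HIST1H2BC and HIST1H3H are higher in all irradiated knockdown libraries than in all non-irradiated ones, and HIST2H4A, H1F0 and H3F3A are lower.

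Factors that make or carry histones were read from lists of 23 tested genes of histone gene transcription and 3′-end processing and 20 tested histone chaperones. None was called by edgeR in either knockdown comparison: without irradiation 16 of 23 and 14 of 20 had positive values, with medians of 0.10 and 0.20, and with irradiation 15 of 23 and 9 of 20 did. At an unadjusted p under 0.05, 1 and 3 were higher without irradiation, against 7.62% of all genes, and 1 and 0 with it, against 3.48%. SLBP, which binds the stem-loop shown above, had 53.65, 81.1 and 68.4 CPM in non-irradiated knockdown, against 47.65, 51.6 and 49.55 CPM in controls (log2 fold change 0.45, SE 0.32, adjusted p = 0.501). NPAT, the coactivator of histone gene transcription in S phase, had 28.8, 30.2 and 27.3 CPM in non-irradiated knockdown, against 32.4, 27.1 and 30.4 CPM in controls (log2 fold change -0.06, SE 0.17, adjusted p = 0.899). SLBP was higher in every knockdown library and called with the block (adjusted p = 0.0142), whereas the NPAT groups overlapped. CHAF1A and CHAF1B, subunits of the assembly factor CAF-1 that deposits histones behind the replication fork, had log2 fold changes of 0.77 and 0.70 (adjusted p = 0.329 and 0.437; 0.00576 and 0.00505 with the block). HIRA, which deposits H3.3 outside replication, had -0.05 (adjusted p = 0.94).

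Between irradiated and non-irradiated libraries 1 of these factors was called, NAP1L1, a chaperone of H2A and H2B. Of all genes 2.26% were called in controls (1.38% higher) and 3.58% in knockdown libraries (2.18% higher), so that this call is not read as a result about the lists. It had 825, 1005 and 887 CPM in irradiated controls, against 675, 570.4 and 509 CPM in non-irradiated controls (log2 fold change 0.63, SE 0.14, adjusted p = 0.0456). It had 846, 1103 and 948 CPM in irradiated knockdown, against 469, 533 and 510.5 CPM in non-irradiated knockdown (log2 fold change 0.94, SE 0.14, adjusted p = 0.00892). All irradiated libraries were above all non-irradiated ones in both comparisons, as for 13.7% of all genes in controls and 15.8% in knockdown libraries.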

How the data were processed

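Polyadenylated RNA of 12 libraries was sequenced, per the labels' protocols. The authors deposited counts as whole numbers, unscaled, in a table for irradiated and a table for non-irradiated cells (6 libraries each), with gene coordinates and lengths. Tools listed, per the submitters' processing notes, were featureCounts, edgeR 3.20.8, Subread 1.5.3 and STAR 2.5, with GRCh38. What strand setting, rule for reads with several matches or annotation release was used is not given in the sources used here, so counts of near-identical, overlapping or antisense histone genes are uncertain. Members and gene lists were chosen with earlier results of these data known, and the grouping by annotated 3′ end was made after levels had been seen.

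The counts were joined, kept by filterByExpr (minimum count 10, minimum total 15; 17191 genes, of which 44 of 74 cluster and 7 of 7 replacement genes), TMM-scaled and fitted with edgeR 4.0.16 in R 4.3.3 by 1 robust quasi-likelihood model of 4 group means (8 residual degrees of freedom, biological coefficient of variation 0.216). Adjusted p-values are Benjamini-Hochberg over all genes tested, called under 0.05; SEs are the log2 fold change over the square root of F. The script was tested on simulated data. CPM are TMM-normalised. Same-numbered libraries within a table correlated in their deviations from the group means (0.233 to 0.296 without and 0.607 to 0.775 with irradiation), so the numbers were taken as pairs within tables, from the data and not the labels. Irradiated replicates 2 and 3 also correlated across numbers (0.476 and 0.396), with replicate 1 apart from both. Across tables, correlations of the same number ran from -0.15 to 0.143. Alternatives were library-size and relative log expression scaling, no filter, DESeq2 1.42.0, limma-voom 3.58.1, only the compared libraries, the replicate block, each library left out, and, chosen after seeing the data, both first irradiated replicates left out.

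Genes with a sentence of their own were the replacement genes, the 12 cluster genes highest per kb, all called genes and, per comparison, the 2 largest values of each sign; MCM2 and the factors named beside NAP1L1 were picked after values were seen. Of the 74 cluster genes 73 matched a GENCODE 29 gene. RefSeq promoters were found for 53 cluster and 6 replacement genes.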

Additional observations from a re-analysis of the deposited data

Results flagged for a closer look

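HIST1H2BN had values of opposite sign with irradiation in the 2 cell states, and edgeR called neither of them. It had 15.98, 13.7 and 14.4 CPM in irradiated knockdown, against 9.70, 11.3 and 11.15 CPM in non-irradiated knockdown, a log2 fold change of 0.45 (adjusted p = 0.0641). It had 15.96, 17.75 and 16.8 CPM in irradiated controls, against 20.8, 21.9 and 22.1 CPM in non-irradiated controls, a log2 fold change of -0.36 (adjusted p = 0.12). Every irradiated knockdown library was thus above every non-irradiated knockdown library, as for 15.8% of all genes. Every irradiated control was below every non-irradiated control, as for 13.9% of all genes. The gene was picked for its large interaction value. The difference of the 2 values, the interaction term, was 0.8125 on the log2 scale with an adjusted p of 1.0 over all genes in edgeR's quasi-likelihood test, so that it did not pass the correction, and an adjusted p of 0.0274 in DESeq2. With each library left out in turn it lay between 0.74 and 0.86. Irradiation and deposited table cannot be told apart.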

How the results depend on the processing

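HIST1H2BN kept its call in the non-irradiated knockdown under all alternatives, with adjusted p-values up to 0.0262. Of 572 values of single named genes under an alternative, 481 kept direction and side of the threshold, 80 lost a call, 10 gained one and 1 reversed: HIST2H3D in the irradiated knockdown, 0.34 as reported and -0.12 to 0.623 with 1 library left out, the lowest without irradiated knockdown 2. Counts of cluster genes called in the non-irradiated knockdown (5 as reported) were 8 with DESeq2, 9 with only the compared libraries, 15 with the replicate block, 12 without both first irradiated replicates, 3 of the 35 genes with no shared exon position (median log2 fold change -0.21, against -0.32), and 1 to 7 with 1 library left out; replacement genes (0) were 1, 5 and 3 with only the compared libraries, the block, and without the first irradiated replicates. In the irradiated knockdown cluster genes (0) were 2 with the block and 1 without the first irradiated replicates. For irradiation in controls cluster genes (1) were 4 with library sizes alone, 4 unfiltered, 12 with DESeq2, 0 with only the compared libraries, 4 with the block, 3 without the first irradiated replicates, 0 without shared exon positions and 0 to 2 with 1 library left out; replacement genes (0) were 2, 2, 1 and 2 with library sizes alone, DESeq2, the block and without the first irradiated replicates, and 0 to 1 leaving 1 out. For irradiation in knockdowns cluster genes (4) were 2 with library sizes alone, 1 unfiltered, 1 with only the compared libraries and 0 to 5 leaving 1 out; replacement genes (2) were 0 with only the compared libraries and 0 to 2 leaving 1 out. DESeq2 called 1 cluster gene in the interaction. Where a library is left out the remaining ones of its group are assumed to vary like the others; the cause of these shifts was not tested. Counts over all genes moved as well: 265 in the non-irradiated knockdown, against 1047 with DESeq2, 1486 with only the compared libraries, 4776 with the block, 2564 without the first irradiated replicates and 31 to 989 with 1 library left out; 51 in the irradiated knockdown, against 273, 1, 1974, 326 and 4 to 254 in that order; 389 for irradiation in controls, against 1377, 64, 965, 868 and 24 to 648, with 614 for library sizes alone and 592 unfiltered; and 615 for irradiation in knockdowns, against 1438, 344, 1157, 1806 and 76 to 1489. The block across tables pairs numbers that do not correlate, so its counts for irradiation are given here only. Without HIST2H2BE the cluster genes took 0.0823% of counts in non-irradiated knockdown against 0.101% in controls. The filter on low counts left 30 of 74 cluster genes untested.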
